A study of Mus musculus with 4 samples.

Results

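The genes described here are the clustered core histone genes. Every gene in the deposited table was taken whose symbol names a histone cluster, Hist1 to Hist4, and class H2A, H2B, H3 or H4. Of 23466 gene symbols, 62 matched, and they had 70 transcript records, with more than 1 record for 8 genes. Each gene was represented by the record with the highest mean over the 4 libraries, and Hist1h2bq and Hist1h2br, which had identical values throughout, were counted once, which left 61 members. These comprised 18 H2A, 18 H2B, 12 H3 and 13 H4 genes, of which 47 lie in cluster Hist1, 10 in Hist2, 3 in Hist3 and 1 in Hist4. Hist3h2bb-ps is named as a pseudogene by its symbol, and the other members encode histones.

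RNA was measured in frozen hippocampus of C57BL/6N mice at postnatal day 30, in 2 wild-type libraries (numbered 11 and 73, condition field wt) and 2 Atp6ap2 mutant libraries (numbered 38 and 39). The condition field of the mutants reads conditional het:Atp6ap2Camk2aCre/0, while their titles end in ko, and the labels do not settle which of these holds. Atp6ap2 encodes an accessory subunit of the vacuolar proton pump, and Camk2a-Cre is a recombinase expressed in excitatory neurons of the forebrain, so other cells of the dissected tissue keep the gene. No agent, no Cre-only control and no further allele is named in the labels, which also do not say that each library came from its own animal. The p-values below therefore measure the spread between these samples, with 2 per group.

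Core histones form the protein spool of the nucleosome, on which DNA is wound. Most of their messages are made in S phase, from clustered genes without introns, and they end in a conserved stem-loop in place of a poly(A) tail. The stem-loop is bound by the protein SLBP and cut with the help of the U7 small nuclear ribonucleoprotein. Neurons no longer divide and replace nucleosomes mainly with replication-independent variants such as H3.3, while some clustered genes are also read in differentiated cells as polyadenylated messages. The libraries were made after removal of ribosomal RNA and with random primers, a method that keeps messages without a poly(A) tail.

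Many of these genes share stretches of coding sequence that are longer than 1 read, and the deposited values sum aligned bases over each transcript. How a read that fits several genes was placed is not given, so the signal of a member can hold reads of another gene. A read spans 42 bases, and the coding sequences of 61 member symbols (GENCODE M21, GRCm38) were therefore cut into every window of that length. In the median member 19.1% of windows occurred in 1 gene alone. In 13 members no window did, and in 10 members more than 50% did. For each class the window held by the most members is shown, because a read from it cannot be assigned to 1 gene by its sequence.
H2A: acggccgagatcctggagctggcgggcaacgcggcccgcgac
H2B: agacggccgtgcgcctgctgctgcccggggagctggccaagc
H3: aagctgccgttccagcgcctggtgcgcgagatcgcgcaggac
H4: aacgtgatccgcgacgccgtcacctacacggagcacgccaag
The H2A window was found in 16 of 18 members with a coding sequence (all but Hist1h2aa and Hist3h2a) and the H2B window in 16 of 18 (all but Hist2h2bb and Hist2h2be). The H3 window was in 12 of 12 and the H4 window in 11 of 13 (all but Hist2h4 and Hist4h4). Hist4h4 shared no window with another gene (100% in 1 gene), Hist2h2bb had 99.1%, Hist2h2be 96.5% and Hist2h4 91.1% of windows to itself. Among members with at least 100 scaled read equivalents these are the 4 with the largest such share. At the other end, 5 pairs of genes shared every coding window (Hist1h2ao with Hist1h2ap, Hist1h2bq with Hist1h2br, Hist1h4m with Hist1h4n, Hist2h2aa1 with Hist2h2aa2, Hist2h3c1 with Hist2h3c2). Values within such a pair ranged from identical (Hist1h2bq and Hist1h2br) to unlike (means of 35.1 in Hist2h3c1 and 214 in Hist2h3c2). How reads were divided within a pair is not known. Values of the 2 genes are therefore uncertain as to locus and are not taken as independent.

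The stem-loop was searched for on the sense strand of every annotated transcript, as GGC, 1 free base, CTTTTCA, 2 free bases and GCC. It was found in 30 of 62 member symbols with a GENCODE transcript (48.4%) and in 39 of 55341 genes (0.0705%). A transcript model that stops before the site would not show it. Only 2 of the possible spellings occurred, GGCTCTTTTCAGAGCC in 23 members of H2A, H2B and H3 and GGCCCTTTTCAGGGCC in 7 members of H4. Sites of members whose values are given further on are shown, 1 or more for each class, with the stem-loop in capitals.
Hist2h2aa1 (H2A): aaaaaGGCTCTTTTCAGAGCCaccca
Hist3h2ba (H2B): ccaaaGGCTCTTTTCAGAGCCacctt
Hist1h3a (H3): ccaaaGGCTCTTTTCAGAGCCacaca
Hist1h4n (H4): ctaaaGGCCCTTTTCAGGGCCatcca
Hist4h4 (H4): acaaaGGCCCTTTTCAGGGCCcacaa
In 17 of the 30 the first listed transcript with the site ended within 60 bases after the stem-loop, the form of a message cut there. In 10 it ran on for more than 300 bases, among them Hist4h4 and Hist3h2a.

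The promoters of 56 members (RefSeq, GRCm38.p6, 250 bases upstream of the start, both strands searched) differed in their letters by histone class. The letters CCAAT, bound by the factor NF-Y, occurred in 18 of 18 H2A, 16 of 16 H2B, 8 of 10 H3 and 3 of 12 H4 promoters, against 33.9% of all 32851 promoters of the same length. ATTTGCAT, the octamer bound by the factor Oct1, occurred in 7 of 18 H2A and 7 of 16 H2B promoters, in 0 of 10 H3 and 0 of 12 H4 promoters, and in 1.60% of all promoters. TATAAA occurred in 25 of 56 members (44.6%), with 6 of 12 in H4, against 12.4% of all promoters. In 10 pairs of an H2A and an H2B gene the promoter windows overlap, so the same match can be counted in both classes. A member counted if any of its promoters matched, whereas the share over all promoters counts each promoter. A match is a description of the letters, not of a bound site. The promoters of an H2B gene that was lower in both mutants, an H2B gene that was higher in both and the H4 gene with the highest signal are shown, with matches to the 3 motifs on either strand in capitals.
Hist1h2bn, chr13:21753826-21754075, plus strand: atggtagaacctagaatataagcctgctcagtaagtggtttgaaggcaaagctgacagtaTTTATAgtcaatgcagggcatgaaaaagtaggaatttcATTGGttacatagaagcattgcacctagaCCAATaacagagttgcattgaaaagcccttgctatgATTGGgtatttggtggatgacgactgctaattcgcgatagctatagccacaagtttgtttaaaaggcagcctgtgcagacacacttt
Hist1h2bg, chr13:23571150-23571399, plus strand: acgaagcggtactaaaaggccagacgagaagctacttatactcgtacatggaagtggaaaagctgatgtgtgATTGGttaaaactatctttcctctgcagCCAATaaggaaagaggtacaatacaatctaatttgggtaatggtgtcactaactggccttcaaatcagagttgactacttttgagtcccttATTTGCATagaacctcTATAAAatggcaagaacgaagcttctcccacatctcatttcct
Hist1h4j, chr13:21734784-21735033, plus strand: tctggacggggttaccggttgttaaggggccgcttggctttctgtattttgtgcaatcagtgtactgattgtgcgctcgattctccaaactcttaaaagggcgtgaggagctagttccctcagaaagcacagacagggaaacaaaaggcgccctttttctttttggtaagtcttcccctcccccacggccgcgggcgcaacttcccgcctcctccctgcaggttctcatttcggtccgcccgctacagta
Hist1h2bn held 3 CCAAT and 1 TATAAA, Hist1h2bg held 2 CCAAT, 1 TATAAA and 1 ATTTGCAT, and Hist1h4j held none of the 3 motifs in this window.

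Before the comparison, 4 facts of the libraries bear on it. Depth was 18339838 read equivalents in wild-type 11, 18328405 in mutant 38 and 17543464 in mutant 39, but 10023033 in wild-type 73, so 1 read was worth 1.56 scaled read equivalents there and between 0.835 and 0.903 in the others. The signal of Atp6ap2, in scaled read equivalents, was 2312 and 2637 for the wild-types and 2551 and 2522 for the mutants (log2 fold change 0.04 ± 0.10 SE; limma, Benjamini-Hochberg adjusted p = 0.991), so the whole-tissue value of the targeted gene did not separate the groups. The transcript of the choroid plexus gene Ttr had 41492 in wild-type 11 and 70079 in mutant 38 but 2562 in wild-type 73 and 1749 in mutant 39, so 1 library of each group was rich in RNA of that neighbouring tissue. The summed signal of 10 hippocampal neuron markers lay between 52828 and 62209 in all 4 libraries, with the groups overlapping.

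Core histone messages were a small part of the RNA, and nearly all members had signal. Since coding windows are shared, signal at a member does not show that its own locus was transcribed. The members together held 0.0739% of all gene signal in wild-type 11, 0.0906% in wild-type 73, 0.0742% in mutant 38 and 0.0823% in mutant 39. Of 61 members, 24 had a mean of at least 100 scaled read equivalents, 28 had between 10 and 100, and 9 had less than 10. The 12 members with the highest mean held 69.7% of the signal. The lowest were Hist1h2aa and Hist1h2ba, the testis-specific H2A and H2B genes, and Hist1h2ad, which did not reach 1 read equivalent in 2 libraries and were not tested. The filter was passed by the other 58 (16 H2A, 17 H2B, 12 H3 and 13 H4 genes).

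**Figure D1:**
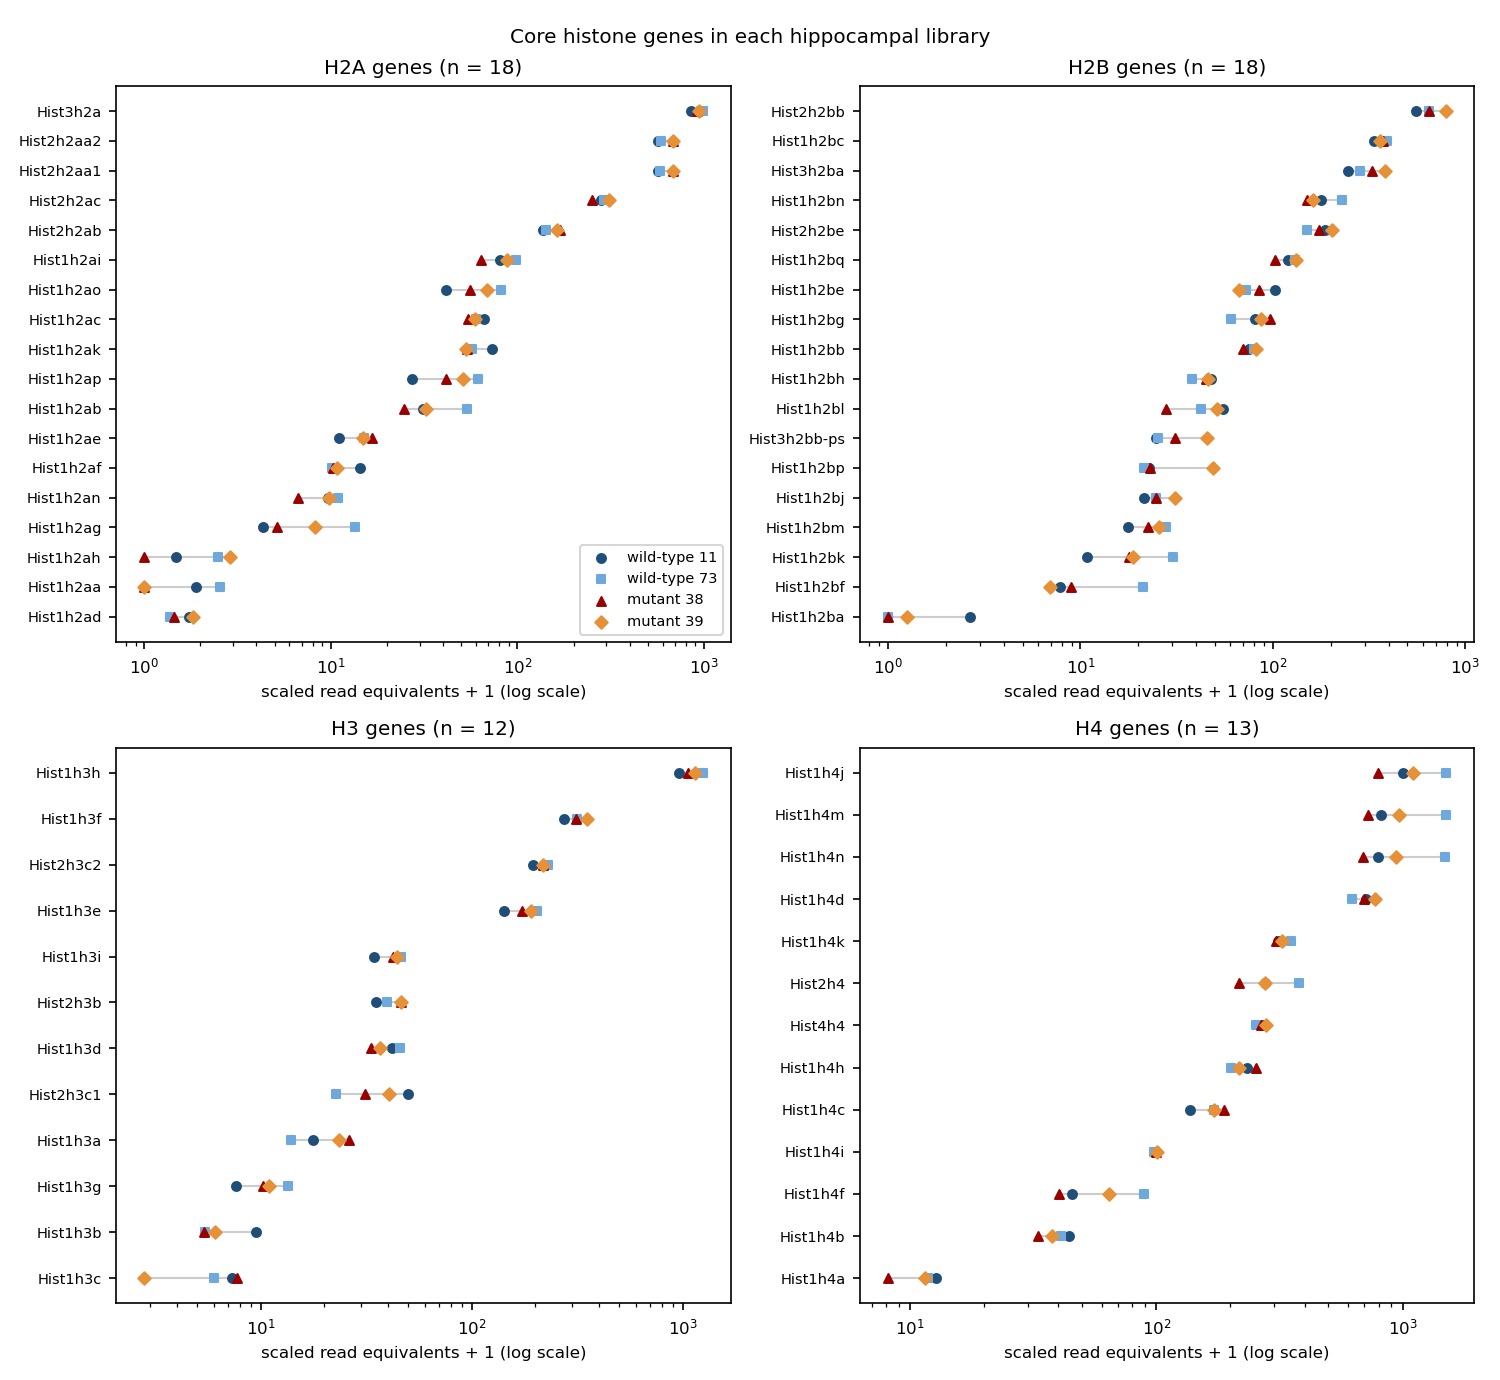
Signal of each of the 61 core histone genes in the 4 libraries, by class, as scaled read equivalents plus 1 on a log axis, with 1 symbol per library and a grey line from the lowest to the highest library. Hist1h4j, Hist1h4m and Hist1h4n are highest in wild-type 73 (between 1485 and 1507), and most other members with high signal have 4 symbols close together.

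Compared per base of transcript, 3 H4 genes and an H3 gene led. Length was known for 56 members (RefSeq), in which the mean coverage per base, the deposited signal divided by the length of the transcript, had a median of 4.60. Coverage per base was 109 in Hist1h4j, 104 in Hist1h4m and 101 in Hist1h4n, all H4 genes of the Hist1 cluster. It was 94.7 in Hist1h3h, 76.2 in Hist3h2a, 73.1 in Hist1h4d and 56.3 in Hist2h2bb. The order of the first 3 cannot be read as an order of loci, since no coding window of Hist1h4m or Hist1h4n was its own.

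The level of a member was set beside how much sequence it shares. Over 60 members with a coding sequence and a value, Spearman's rho between the mean level and the mean number of genes per window was -0.39, and between the level and the percentage of windows in 1 gene it was 0.09. These points share their libraries, and shared windows tie members to one another. The 10 members with more than 50% of windows in 1 gene had a median level of 276 scaled read equivalents, and the other 50 had 51.3. Members with much sequence in common with other genes included both the highest (Hist1h4j and Hist1h3h) and the lowest (Hist1h2ad and Hist1h2ah, under 1 read equivalent on average).

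**Figure D2:**
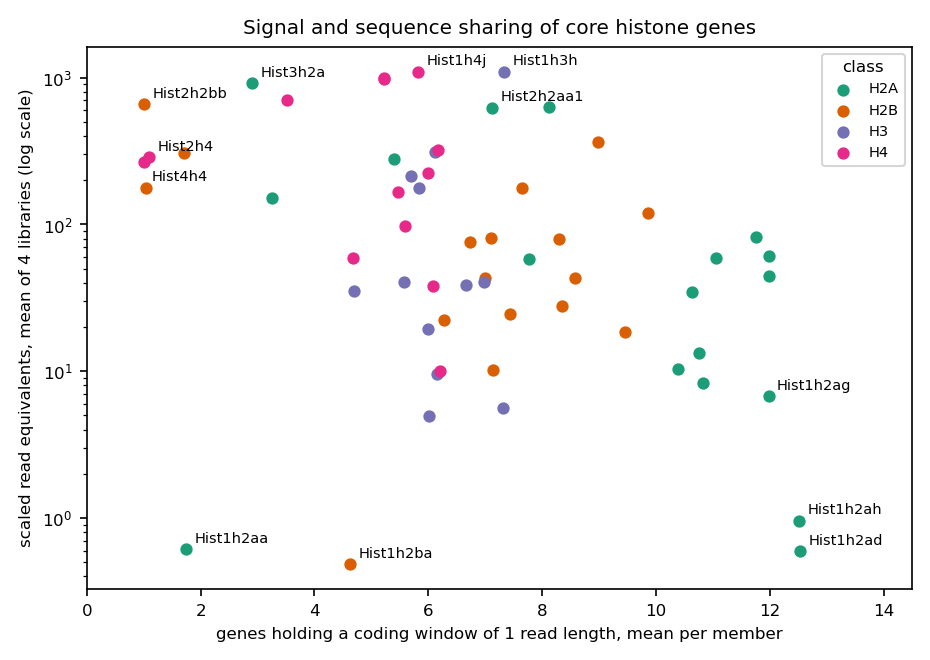
Mean signal over the 4 libraries (scaled read equivalents, log axis) against the mean number of genes that hold a coding window of 1 read length, 1 point per member with a coding sequence, coloured by class. Hist4h4 stands at 1 gene per window and Hist1h2ad at 12.5, and members with high signal occur from 1 to 9 genes per window.

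No core histone gene passed the test between mutant and wild-type hippocampus. By limma with Benjamini-Hochberg adjustment over all 18127 genes tested, 0 of 58 members passed 0.05, where 0.00552% of all genes did (Apold1 alone). At an unadjusted p below 0.05, 1 member was higher and 0 were lower in mutant, where 2.18% of all genes were higher and 1.75% lower (3.94% in either direction). The median log2 fold change of the 58 was 0.02, beside 0.01 over all genes tested. It was above 0 in 32 and below 0 in 26. By the p-values of the authors' deposited table, 0 of 61 members had a value below 0.05, where 1.66% of all symbols did, and the smallest were 0.0588 for Hist1h4j and 0.0654 for Hist3h2ba.

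The positions of the 4 libraries gave a similar count to that of genes at large. Both mutants lay above both wild-types in 11 of 58 members (19.0%, against 16.8% of all genes tested) and below both in 7 (12.1%, against 16.5%). The 11 were Hist3h2ba, Hist2h2aa1, Hist2h2aa2, Hist2h2ab, Hist2h2bb, Hist2h3b, Hist1h2bg, Hist1h2bp, Hist1h3a, Hist1h4i and Hist3h2bb-ps. The 7 were Hist1h2ac, Hist1h2ak, Hist1h2bn, Hist1h3d, Hist1h4a, Hist1h4b and Hist2h4. These shares are near the background. Some of the separations are smaller than 1 read, as in Hist2h4 between wild-type 11 (276.2) and mutant 39 (275.9).

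**Figure D3:**
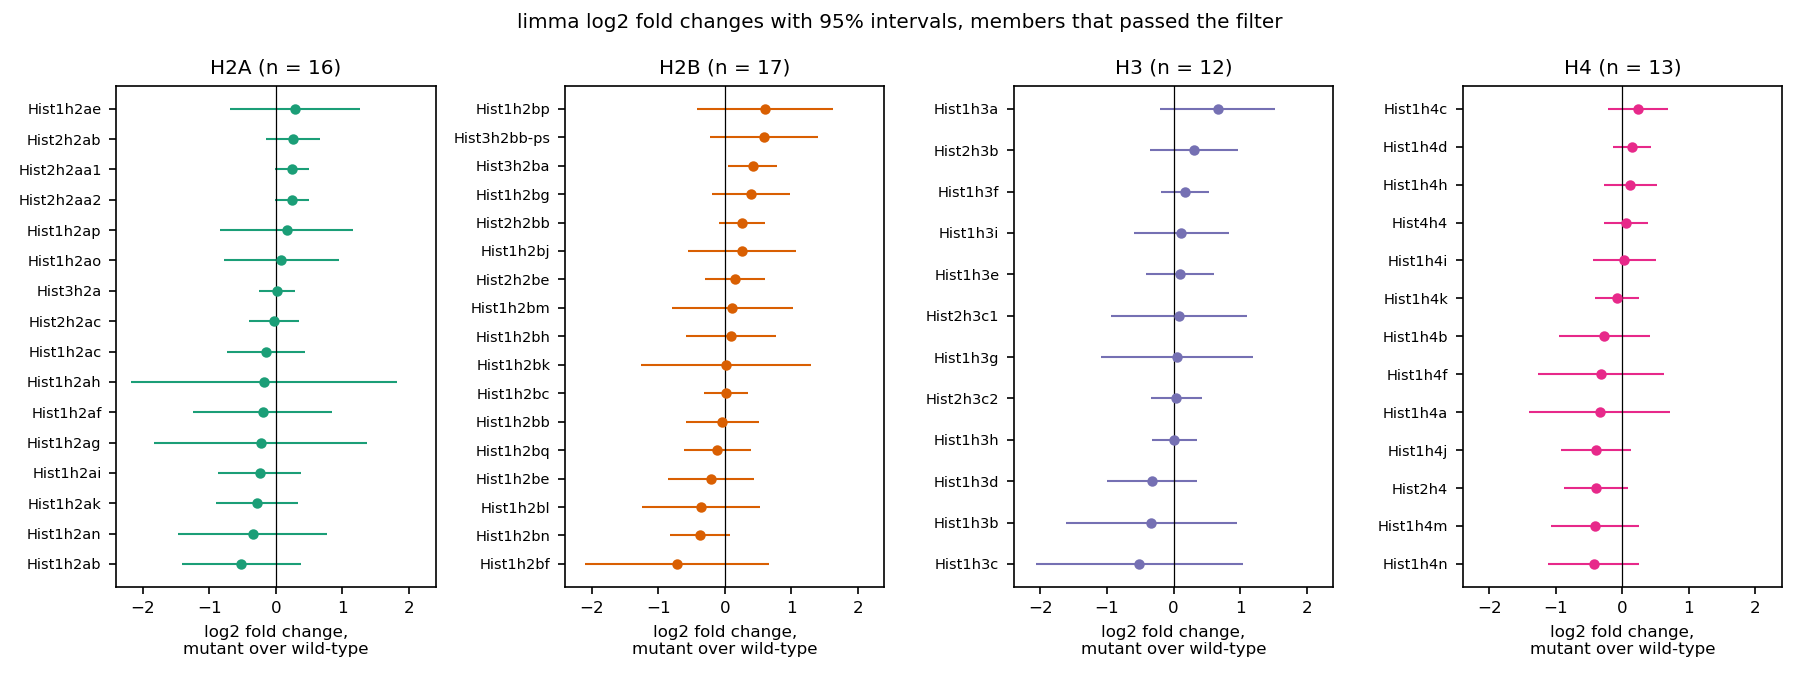
Log2 fold change of mutant over wild-type with its 95% limma interval for the 58 members that passed the filter, by class and in order of size. All intervals but that of Hist3h2ba (0.05 to 0.79) include 0.

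H2A packs as a dimer with H2B on the outside of the nucleosome. The H2A gene with the highest signal was Hist3h2a, at 850 (wild-type 11), 982 (wild-type 73), 911 (mutant 38) and 943 (mutant 39) scaled read equivalents. Both mutants lay between the wild-types, with a log2 fold change of 0.02 ± 0.11 (SE, 2 libraries a group). Hist2h2aa1 had 563 and 584 in wild-type against 680 and 678 in mutant, a log2 fold change of 0.24 ± 0.11 (limma adjusted p = 0.989). Its copy Hist2h2aa2, with identical windows, had 564 and 586 against 681 and 679. The mutants stood above the wild-types here by more than either group's own gap, but the pair, with almost equal values, is taken as 1 observation. The 16 tested H2A members had a median log2 fold change of -0.09, with 7 above 0 and 9 below. That median was 0.13 without wild-type 73 and 0.11 without mutant 38, so leaving out either library changed its sign. It was also above 0, at 0.051, with a filter of 10 read equivalents in 2 libraries.

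H2B, the partner of H2A, held the member with the smallest p-value. This gene, Hist3h2ba, was read at 244 scaled read equivalents in wild-type 11, 284 in wild-type 73, 326 in mutant 38 and 380 in mutant 39. Each mutant exceeded both wild-types, and the log2 fold change was 0.42 ± 0.16 SE. It was the 1 member with an unadjusted p below 0.05 (limma adjusted p = 0.989). In Hist3h2ba 53.8% of coding windows occurred in that gene alone. Of its 340 windows, 148 were also in Hist3h2bb-ps, another H2B member with both mutants above both wild-types.

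Hist2h2bb, whose coding windows are almost all its own, had the highest H2B signal. It stood at 552 in wild-type 11, 647 in wild-type 73, 648 in mutant 38 and 797 in mutant 39. Wild-type 73 and mutant 38 were within 1 read of each other, and the log2 fold change was 0.26 ± 0.15 (limma adjusted p = 0.989). Hist1h2bn was on the other side, with 177 and 228 in wild-type against 149 and 160 in mutant, and its log2 fold change was -0.37 ± 0.19 (limma adjusted p = 0.989). Hist1h2bc had 333 and 390 in wild-type against 371 and 357 in mutant, and its groups overlapped. The 17 tested H2B members had a median log2 fold change of 0.10, with 11 above 0 and 6 below, and both mutants above both wild-types in 5 members (29.4%, against 16.8% of all genes tested).

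H3, which carries many of the modified tail residues of chromatin, was led by Hist1h3h, which stood at 959 in wild-type 11 and 1241 in wild-type 73, and at 1053 in mutant 38 and 1147 in mutant 39 (scaled read equivalents). The wild-types enclosed the mutants, with a log2 fold change of 0.01 ± 0.14 SE. Hist1h3f had 272 and 314 in wild-type and 310 and 350 in mutant, with wild-type 73 above mutant 38. Hist1h3a had the highest log2 fold change of all 58 tested members, 0.66 ± 0.37 (limma adjusted p = 0.989), from low values of 16.7 and 12.9 in wild-type and 25.2 and 22.6 in mutant. The median of the 12 H3 members was 0.07, and it was -0.09 without wild-type 11 and 0.24 without wild-type 73.

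H4, the most conserved core histone, held the most signal and the largest spread. The scaled read equivalents of the 13 H4 members summed to 4747 in wild-type 11, 6706 in wild-type 73, 4307 in mutant 38 and 5240 in mutant 39. Wild-type 73 was the highest of the 4 and mutant 38 the lowest, with wild-type 11 and mutant 39 between them, so the groups overlapped. H4 made up 41.9% and 47.3% of core histone signal in the wild-types and 37.5% and 40.2% in the mutants. The median log2 fold change of the 13 was -0.27, with 8 below 0. It was 0.02 without wild-type 73 and -0.04 without mutant 38.

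The spread of H4 lay in 3 genes, singled out after their values were seen. Hist1h4j stood at 1006 (wild-type 11), 1505 (wild-type 73), 794 (mutant 38) and 1098 (mutant 39), with a log2 fold change of -0.40 ± 0.22 (SE; limma adjusted p = 0.989). Hist1h4m had 819 and 1507 against 721 and 965, and Hist1h4n had 793 and 1485 against 691 and 936. Wild-type 73 stood far above the other 3 libraries in all of them, and wild-type 11 was below mutant 39. Without wild-type 73 the log2 fold changes of Hist1h4m and Hist1h4n, -0.41 and -0.43 over all 4 libraries, were 0.03 and 0.02, and that of Hist1h4j was -0.11.

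The other 10 H4 genes summed to 2128, 2209, 2100 and 2242 in wild-types 11 and 73 and mutants 38 and 39, and their median log2 fold change was -0.02. Hist2h4, with coding windows mostly its own, had 276 and 377 in wild-type and 216 and 276 in mutant. Its log2 fold change was -0.40 ± 0.20 SE (limma adjusted p = 0.989), and wild-type 73 was again the highest. Hist4h4, in which every coding window was its own, had 267 and 254 in wild-type and 265 and 278 in mutant. Its 4 libraries lay within a narrow range (log2 fold change 0.06 ± 0.14 SE). Hist1h4d had 710 and 622 against 699 and 769, and Hist1h4k had 311 and 351 against 304 and 322, with overlapping groups in both.

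**Figure D4:**
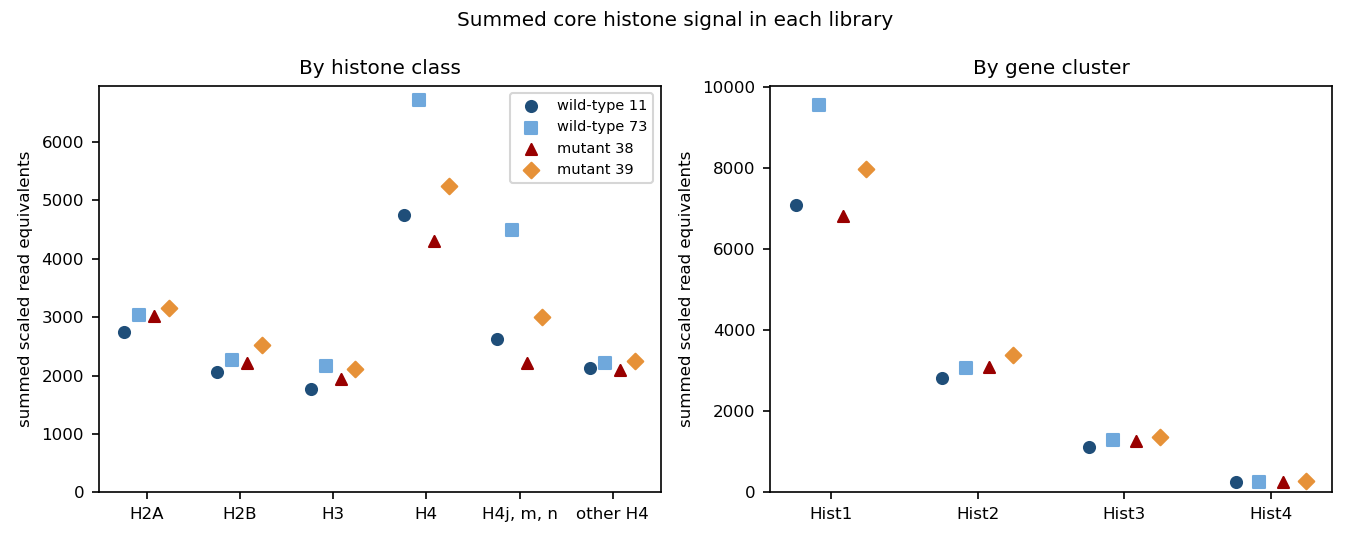
Summed scaled read equivalents of the members in each library, by histone class on the left (H4 is also split into Hist1h4j, Hist1h4m and Hist1h4n and the other 10 genes) and by gene cluster on the right, with 1 symbol per library. Wild-type 73 stands at 6706 for H4 and 4497 for the 3 H4 genes, and the other 10 H4 genes lie between 2100 and 2242 in all libraries.

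The sum over all members was 11317 in wild-type 11, 14178 in wild-type 73, 11474 in mutant 38 and 13032 in mutant 39, in scaled read equivalents. The mutants lay between the wild-types, with a log2 ratio of the mean sums of -0.06. That ratio was -0.21 without wild-type 11 and -0.15 without mutant 39, but 0.11 without wild-type 73 and 0.03 without mutant 38. In bulk tissue, fewer cells of a type and less RNA per cell cannot be told apart. Wild-type 73 was the highest of the 4 libraries in 25 of 61 members (41.0%) and in 29.96% of all genes tested. It was also the shallowest library, with 20 members under 20 reads against 14 or 15 in the others, and the part of depth in these values was not tested.

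The genes were also counted by cluster. In Hist2, 8 of 10 members had a log2 fold change above 0 and both mutants lay above both wild-types in 5, while Hist1 had 20 of 44 above 0 and both mutants above in 4. Over all genes tested 51.3% were above 0 and 16.8% had both mutants above both wild-types. The medians were 0.20 in Hist2, -0.09 in Hist1 and 0.42 over the 3 members of Hist3. Of those 3, Hist3h2ba (0.42) shares 148 of its 340 coding windows with Hist3h2bb-ps (0.59), a pseudogene by its symbol. Of the 5 in Hist2, Hist2h2aa1 and Hist2h2aa2 share all their windows, and no member of the cluster passed the test, so the difference between clusters is a description and was not tested. The summed signal of Hist2 was 2832 and 3065 in the wild-types and 3108 and 3404 in the mutants, a log2 ratio of 0.14.

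The same members were set against each other within the 2 pairs of libraries alike in choroid plexus RNA, a pairing made after the data were seen. Between mutant 38 and wild-type 11, both rich in it, the median log2 difference of the 58 members was 0.01, and between mutant 39 and wild-type 73, both poor in it, it was -0.03. A member had the same sign in both pairs in 30 of 58 cases. Across the 58 genes the differences of the 2 pairs had a Pearson's r of 0.0061 and a Spearman's rho of 0.11. This is a description over genes that share the 4 libraries and, in part, their coding sequence. Hist3h2ba had 0.42 in each pair, Hist2h4 had -0.35 and -0.45, and Hist1h3a had 0.57 and 0.76. Of members with a large difference in 1 pair, 3 chosen after their values were seen did not have it in the other. Hist1h2bp had 0.01 and 1.20, Hist1h2bf had 0.18 and -1.61, and Hist2h3c1 had -0.67 and 0.83.

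**Figure D5:**
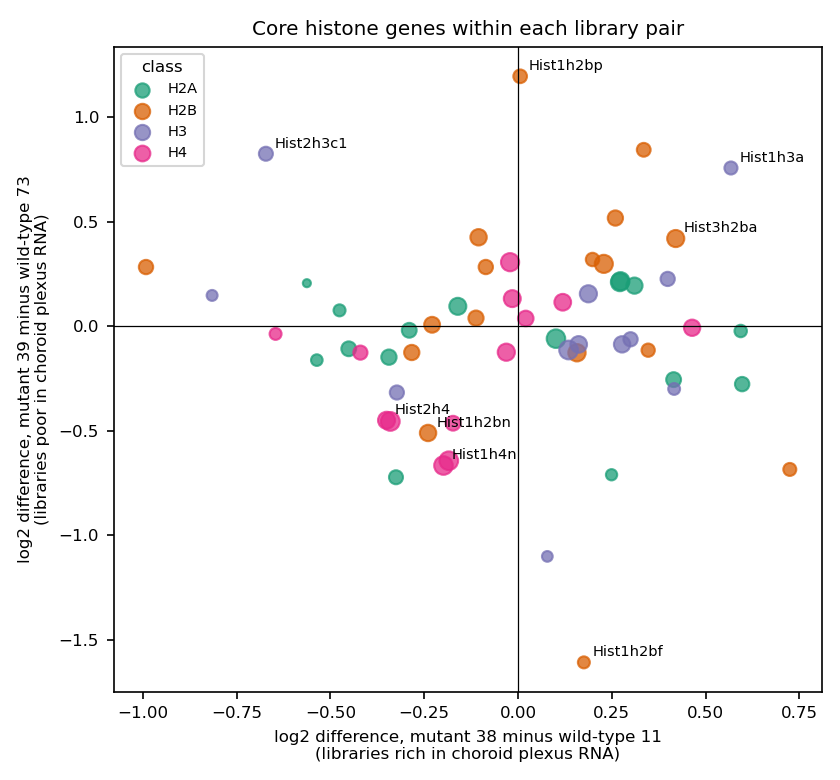
Log2 difference of mutant 39 minus wild-type 73 (vertical) against mutant 38 minus wild-type 11 (horizontal) for the 58 members that passed the filter, with colour by class and point size rising with mean signal. The points scatter around 0 in both directions, with the widest differences among members of low signal.

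Members of low signal had wider errors. The median standard error of the log2 fold change was 0.16 in the 24 members with a mean of at least 100, 0.35 in the 28 between 10 and 100 and 0.60 in the 6 tested members below 10. No member of at least 100 had a log2 fold change beyond 0.43 in size. Hist1h2bf, with 6.86 in wild-type 11, 20.1 in wild-type 73, 7.88 in mutant 38 and 5.91 in mutant 39, had the lowest log2 fold change of all the members tested (-0.72 ± 0.59 SE), and its value in wild-type 73 stands alone.

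Within the Hist1 cluster, 10 pairs of an H2A and an H2B gene are transcribed away from each other from a shared promoter region, by the annotation. The H2B gene had the higher signal in 8 of the 10 pairs. In 8 pairs both genes passed the filter, and their log2 fold changes had the same sign in 3. Hist1h2ao with Hist1h2bq and Hist1h2ap with Hist1h2br are not separate observations. Their H2B genes have identical values and their H2A genes share every coding window. Both pairs are among those with the higher H2B signal and among those with opposite signs. Hist1h2ak and Hist1h2bn were both below 0 (-0.28 and -0.37), whereas Hist1h2an and Hist1h2bp were on opposite sides (-0.35 and 0.60). None of the 4 passed the test.

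Genes that make, cut and carry histone messages and proteins did not pass the test either, from lists chosen with earlier results known. Of 19 genes of histone message processing, 0 had a limma adjusted p below 0.05 and 0 an unadjusted p below 0.05. The median log2 fold change was -0.04, with both mutants above both wild-types in 2 and below both in 8 (42.1%, against 16.5% of all genes tested). The stem-loop binding protein gene Slbp had -0.14 ± 0.14, the U7 particle gene Lsm10 had -0.51 ± 0.25 and Sympk, the scaffold of the cleavage complex, had -0.21 ± 0.10 (SE, n = 2 per group). Of 24 histone chaperone genes, 0 passed and 0 had an unadjusted p below 0.05, with a median of -0.04. Both mutants lay above both wild-types in 3 (12.5%) and below both in 7 (29.2%), against 16.8% and 16.5% of all genes tested. Among the 24, Spty2d1 had -0.27 ± 0.12, Asf1b 0.94 ± 0.50 from fewer than 16 read equivalents in every library, and the abundant Atrx 0.01.

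Genes of DNA replication, which is coupled to synthesis of these histones in dividing cells, gave 0 adjusted calls of 32. At an unadjusted limma p below 0.05, 0 were higher and 1 was lower, where 2.18% and 1.75% of all genes tested were. Both mutants lay above both wild-types in 6 (18.75%) and below both in 10 (31.25%), against 16.8% and 16.5% of all genes tested. The median log2 fold change of the 32 was -0.06. Tk1, thymidine kinase, had -0.95 ± 0.39 from scaled values of 21.8 and 21.5 in wild-type against 12.7 and 8.97 in mutant, while Mcm6 had -0.29 and Pcna -0.04. Markers of dividing cells were read at low levels, summed over 14 genes to 797 and 579 in the wild-types and 679 and 601 in the mutants, and Mki67, a marker of cycling cells, had 195 and 158 against 189 and 158. Both libraries rich in choroid plexus RNA had the higher sums of these markers, and the core histone sum had the opposite order, being higher in wild-type 73 than 11 and in mutant 39 than 38. The part of dividing cells in the histone values was not tested.

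Replication-independent histone genes, which supply the variants used outside S phase, gave 0 adjusted and 1 unadjusted call of 11. The 1 call was on the higher side, where 2.18% of all genes tested were called. Both mutants lay above both wild-types in 3 (27.3%) and below both in 2 (18.2%), against 16.8% and 16.5% of all genes tested. H3f3b, encoding H3.3, had scaled values of 1186 and 1050 in wild-type against 1570 and 1449 in mutant (log2 fold change 0.43 ± 0.11 SE; limma adjusted p = 0.989). H3f3a, which encodes the same protein, had -0.10, and H2afx, the variant phosphorylated at DNA breaks, had -0.43 ± 0.18. The variants summed to between 7939 and 8388 in the 4 libraries.

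The linker histone genes that lie among the core genes of Hist1 had other values. Hist1h1e had 521 and 589 in wild-type and 1079 and 1153 in mutant (log2 fold change 1.01 ± 0.12 SE; limma adjusted p = 0.123), and the median of the 6 linker genes was 0.66, beside 0.02 for the core members. This gap between the classes was not tested.

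Other RNAs, listed as lacking a poly(A) tail at least in part, were read for comparison with the stem-loop messages. How each of them ends was not examined in these data. Of 10, 0 passed the adjusted threshold and 2 had an unadjusted p below 0.05, both lower in mutant, and the median was -0.18. The vault RNA Vaultrc5 stood at 568 in wild-type 11, 1248 in wild-type 73, 502 in mutant 38 and 408 in mutant 39 (log2 fold change -0.89 ± 0.33 SE; limma adjusted p = 0.989). The log2 fold change was -0.33 without wild-type 73 and -1.46 without wild-type 11, where it passed (limma adjusted p = 0.0209). Its value in wild-type 73 is the highest, as in Hist1h4j, Hist1h4m, Hist1h4n and Hist2h4. The list was not uniform in this. Wild-type 73 was also the highest in Rmrp, Rprl1, Rprl2, Rprl3 and Terc, but the lowest in Malat1, Neat1, Rpph1 and Rnu73b. Rprl3 had -1.04 ± 0.35 from 35.4, 53.8, 19.1 and 22.5 in wild-types 11 and 73 and mutants 38 and 39. Malat1, a long nuclear RNA, had 0.20.

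Markers of other cells also differed between the groups or libraries, but in each list 0 had a limma adjusted p below 0.05. The 16 oligodendrocyte markers had a median log2 fold change of 0.44, with both mutants above both wild-types in 12 of the 16 (against 16.8% of all genes tested) and sums between 70212 and 99275 in wild-type and between 107240 and 121040 in mutant. The 7 red blood cell genes had a median of 0.47, and the 8 thalamus markers 0.69, with a sum of 7059 in mutant 38 against 3319 to 4052 in the others. The 17 choroid plexus markers summed to 75496 and 7542 in wild-type and 125810 and 7837 in mutant. Microglia (0.06), astrocytes (0.06), oligodendrocyte precursors (-0.05), immature neurons (-0.04), endothelium and mural cells (0.18) and hippocampal neurons (-0.08) had smaller medians. The part of these cell types in the histone values was not tested.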

How the data were processed

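Per the labels' protocols, total RNA of 4 hippocampal samples was depleted of ribosomal RNA and made into strand-marked libraries read from 1 end. The submitters' processing notes name GSNAP, DESeq2 and mm9, with no versions. How reads were counted, on which strand and with which gene models is not given in the sources used here. The authors deposited 31315 transcript records with 1 signal value per library, each the sum of a transcript's aligned bases after division by a factor for the library. Every value was a whole multiple of its library's step, within 0.05 of a step. The authors' deposited p-value column names no adjustment. Since 1 read adds 42 bases, values were divided by 42 and are called scaled read equivalents. The signal is not a count of reads, so the planned count tests were not run.

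One record per gene was tested with limma 3.58.1 (R 4.3.3) on log2(scaled read equivalents + 1), a scale that understates changes of low genes. Genes with at least 1 in 2 or more libraries were kept (18127), with group as the only term, a variance trend, a two-sided test and Benjamini-Hochberg adjustment at 0.05. Every pair of libraries differed beyond sampling noise (chi-square per degree of freedom 8.69 to 19.5), and all were kept as separate samples. The fit was also run on simulated data with known changes. All simulated libraries had the same depth and no choroid plexus difference, so these features of the real libraries were not covered. Python 3.11.15 and matplotlib 3.10.9 read the table and drew the plots. Coding windows and stem-loops came from GENCODE M21, matched by symbol. Promoters and lengths came from RefSeq GRCm38.p6, matched by RefSeq transcript identifier (61 member symbols matched). Since the table is in mm9, no other coordinates are given.

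The members and lists were chosen with earlier results of these data known. Members named with values are the 12 with the highest mean, the 5 higher and 5 lower with the smallest p-value and the highest of each class and cluster. Of each pathway list the 2 genes with the smallest p-value and the most abundant gene are named. Slbp, Mki67, Hist1h2bf, Hist1h2bp, Hist2h3c1 and the genes of divergent pairs were chosen after their values were seen. Alternatives covered the pseudocount, the filter, the scaling, the variance prior, the record per gene, a choroid plexus covariate and each library left out.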

Additional observations from a re-analysis of the deposited data

How the results depend on the processing

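No core histone gene passed the threshold under any of 15 alternatives, and the smallest limma adjusted p of a named member over them was 0.173 (Hist1h4n). The precision that depth and 2 libraries per group allow is given by the standard errors above. The number of genes called over the whole table was 1, and it was 0 without the variance trend, 12 with a robust variance prior, 113 with choroid plexus level added as a covariate and between 1 and 37 with 1 library left out. The choroid plexus covariate was computed from these same libraries, and with it few degrees of freedom remain. Calls made with the covariate are therefore a description of how the count depends on the model. The median log2 fold change of the members, 0.02, ranged from -0.091 to 0.084 with 1 library left out. The class medians ranged from -0.19 to 0.13 in H2A, from -0.087 to 0.24 in H3 and from -0.37 to 0.019 in H4. The H2A median was 0.051 with a filter of 10 read equivalents, and the H4 median was -0.18 with Hist1h4m and Hist1h4n merged and the H2A median, -0.09 otherwise, -0.17 with its pairs merged, alternatives chosen after seeing the data. Scaled to the total over genes, the log2 fold changes of Hist1h2bc (-0.00038), Hist1h3h (-0.0050) and Atrx (-0.0038) changed sign. With 1 library left out, 8 named genes changed sign, Hist1h2bc between -0.099 and 0.13, Hist1h3h between -0.17 and 0.20, Hist1h4k between -0.16 and 0.0096, Hist1h4m between -0.85 and 0.025, Hist1h4n between -0.88 and 0.019, Hist3h2a between -0.083 and 0.13, Pcna between -0.098 and 0.013 and Atrx between -0.11 and 0.13. A lone remaining sample was assumed to vary like the other group. The cause of these changes was not tested. The linker genes Hist1h1e and Hist1h1c passed with the robust prior (limma adjusted p = 0.0445 for both) and with the covariate, and Hist1h1e also without wild-type 11 (0.0476). Vaultrc5 passed with the covariate (0.0261) and without wild-type 11 (0.0209). The planned count tests could not be run on these values. No paired analysis was possible because the replicate numbers 11, 73, 38 and 39 are not shared between the groups and the labels give no other pairing. The pairs by choroid plexus RNA come from the data.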
